A study of Mus musculus with 10 samples.

Results

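The genes described here are the cytokines and chemokines of mouse cardiac fibroblasts, and the regions of chromatin that were assigned to them. A region was included where its gene symbol was Ccl or Cxcl with a number, Il with a number and at most 1 of the letters a, b or f, or Lif, Csf1, Csf2, Csf3, Tnf or Osm. Receptor genes were left out. This rule was met by 760 of the 340994 regions deposited for 5 comparisons, and they belonged to 69 of 22473 genes. Of the genes in RefSeq whose symbols fit the rule, Ccl26, Csf3 and Cxcl16 had no region in these tables. The rule used names alone and no measured value.

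The cells were primary fibroblasts of mouse heart. They were assayed by CUT&Tag, where a transposase tethered to an antibody cuts and tags the DNA around a bound protein for sequencing. Libraries named TGF came from cells given TGF-β, and libraries named siHK1 came from cells in which hexokinase 1 (HK1, an enzyme that starts glycolysis) was targeted by siRNA before TGF-β was given; whether the TGF cells received a control siRNA was not given in the sources used here. Each treatment was profiled with antibodies to lactylated lysine 9 of histone H3 (H3K9lc), c-JUN, SMAD3 and NFATC2, and an untreated library, NC, was set against the TGF H3K9lc library. The title of NC names no antibody, and it was read as H3K9lc because its label names that table, while the H3K9lc library titled SI was read as siHK1 for the same reason. No RNA or protein was analysed here, so the level of HK1 after siRNA was not checked. There was 1 library per condition and antibody, so no difference below has a replicate check, no p-value was computed, and every interval covers counting error only. A difference between 2 libraries can be a difference between those libraries as well as between the treatments.

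Cytokines and chemokines are secreted proteins through which fibroblasts call in and instruct other cells. CC and CXC chemokines such as Ccl2 and Cxcl1 recruit monocytes and neutrophils, while Cxcl12 retains and guides progenitor cells and lymphocytes. Cytokines of the IL-6 family (Il6, Il11, Lif, Osm, Il27) signal through the shared receptor subunit gp130 or its partners, and IL-11 is known as a factor that TGF-β induces in fibroblasts. Many of these genes are switched by AP-1, the dimer that c-JUN forms, together with NF-kB, whereas NFAT factors are best known for cytokine genes of lymphocytes and SMAD3 is the factor that TGF-β receptors activate directly.

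The clearest difference in these genes was in JUN at Il11. Il11 had 3 JUN regions and each held at least 2-fold less JUN signal in the siHK1 library after scaling. Single regions of Osm, Lif, Csf1 and Cxcl12 were lower as well, and 1 region of Cxcl12 was higher. Among JUN regions above the median level, 4.61% of the members were lower, near the 3.29% of all. The strongest JUN regions of Lif, Csf1, Cxcl12, Ccl2, Il34 and Il6 had log2 differences from -0.47 to 0.34. The sequences below are shown because the AP-1 element, to which c-JUN dimers bind, occurs in lower and in retained regions, though not in all of either kind. They are from GRCm38, plus strand, 101 bases each, with matches to TGANTCA in capitals. The first set comes from regions with lower JUN signal in the siHK1 library.
Il11, promoter region, chr7:4778186-4778286: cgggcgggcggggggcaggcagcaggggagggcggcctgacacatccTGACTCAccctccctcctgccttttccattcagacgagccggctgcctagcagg
Il11, upstream region, chr7:4780096-4780196: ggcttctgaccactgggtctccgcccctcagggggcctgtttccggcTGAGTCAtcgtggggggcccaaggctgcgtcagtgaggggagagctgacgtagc
Osm, chr11:4229826-4229926: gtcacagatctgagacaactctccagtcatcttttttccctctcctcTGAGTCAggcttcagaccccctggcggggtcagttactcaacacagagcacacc
Csf1, chr3:107739938-107740038: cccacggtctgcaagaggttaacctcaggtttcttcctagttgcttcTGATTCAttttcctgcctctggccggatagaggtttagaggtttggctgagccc
The next set comes from regions with many JUN reads in both libraries.
Lif, chr11:4294539-4294639: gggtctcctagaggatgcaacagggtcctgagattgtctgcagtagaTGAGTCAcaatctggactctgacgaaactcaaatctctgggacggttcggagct
Ccl2, chr11:82033045-82033145: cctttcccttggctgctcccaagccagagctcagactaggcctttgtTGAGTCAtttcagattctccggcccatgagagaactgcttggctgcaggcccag
Cxcl12, chr6:117071729-117071829: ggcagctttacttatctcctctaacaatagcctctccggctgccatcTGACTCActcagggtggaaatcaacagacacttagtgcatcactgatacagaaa
Il6, chr5:30012818-30012918: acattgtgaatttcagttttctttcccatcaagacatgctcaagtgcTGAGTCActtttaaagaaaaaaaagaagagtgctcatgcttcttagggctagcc

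None of these 8 windows overlaps an annotated exon. Both Il11 windows, also the one labelled upstream, lie upstream only of its shortest transcript, which runs from chr7:4772373-4778141 on the minus strand. Both are within introns of the longer ones. The third JUN region of Il11 held no TGANTCA. The strongest Lif region held 3 matches and those of Ccl2 and Cxcl12 held 2 each, while the retained Il6 and Il34 regions held 1 each and that of the Cxcl1 promoter none. The lower regions held 1, 2 and 0 at Il11 and 1 each at Osm and Csf1. Of the 2 lower regions not shown, that of Lif held a match in its central 200 bases and that of Cxcl12 did not.

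Reads in the listed JUN regions numbered 4215447 in TGF and 2271336 in siHK1. The H3K9lc pair had 2490853 and 1419023, the SMAD3 pair 563562 and 399897, and the NFATC2 pair 575706 and 354599. In that order the siHK1 libraries held 0.539, 0.570, 0.710 and 0.616 reads for each read of their TGF library. Differences below are of the deposited log2 values, scaled for each library, with the TGF value subtracted, and raw reads stand beside them. The deposited scaling can hide a change common to all regions. A region is called at least 2-fold lower or higher only where its mean level lay above the median level of its table. Of the fibroblast genes used to check the label, 9 of 10 had a JUN region at the promoter, Lum being the exception, against 6 of 10 for NFATC2, 5 of 10 for SMAD3 and 2 of 10 for H3K9lc. Of all 22473 genes, 11981 had a promoter region for JUN, 8472 for NFATC2, 8251 for SMAD3 and 3777 for H3K9lc. Promoter JUN regions were also found at the leukocyte genes Cd68, Itgam and Csf1r but not at Ptprc, Adgre1, Cd3e or Spi1, at 3 of 4 endothelial genes (118 and 64 reads in all) and at 1 of 4 cardiomyocyte genes (Myh6, 84 and 38 reads), and their part in the results was not tested. SMAD3 had promoter regions at Ptprc, Csf1r and Spi1, but not at Adgre1, Cd68, Itgam or Cd3e. It also had them at 2 of 4 cardiomyocyte and 2 of 4 endothelial genes. NFATC2 had them at 3 of 4 cardiomyocyte and 1 of 4 endothelial genes, and H3K9lc at 2 of 4 and 0 of 4. For these 3 antibodies the lists thus do not single out fibroblasts.

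Of the 69 genes 61 had JUN regions, 257 regions in all, against 36 genes and 117 regions for H3K9lc. SMAD3 had 137 regions at 49 genes and NFATC2 144 at 48. Of all 22473 genes 16971 had JUN regions, 12995 H3K9lc regions, 16631 SMAD3 regions and 17379 NFATC2 regions. Together the JUN regions held 17827 reads in TGF and 9125 in siHK1, which is 129 and 66.1 reads per kb against 112 and 60.3 over all JUN regions. For the other antibodies the members held fewer reads per kb than all regions: H3K9lc had 51.7 and 28.3 reads per kb against 72.0 and 41.0, SMAD3 18.3 and 15.1 against 29.5 and 21.0, and NFATC2 16.8 and 11.6 against 28.6 and 17.6. The median member had 17 and 9 H3K9lc reads against 16 and 8 over all regions, and 42 and 20 JUN reads against 32 and 17. For SMAD3 the median member and the median region both had 4 and 3 reads, and for NFATC2 they had 2 and 2 against 3 and 2. Intervals of single regions of the last 2 factors are therefore mostly wide.

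Of the 257 JUN regions 152 lay above the median level, with a median log2 difference of -0.06 against -0.03 over all JUN regions. Among them 7 were at least 2-fold lower in siHK1, where 3.29% of all JUN regions were, and 1 was at least 2-fold higher, where 0.888% of all were. Both shares of the members, 4.61% and 0.658%, were near those of all regions. Il11 alone carried 3 of the 7, and without it 4 of 149 were lower with the median still at -0.06; leaving it out was chosen after its values were seen.

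**Figure D1:**
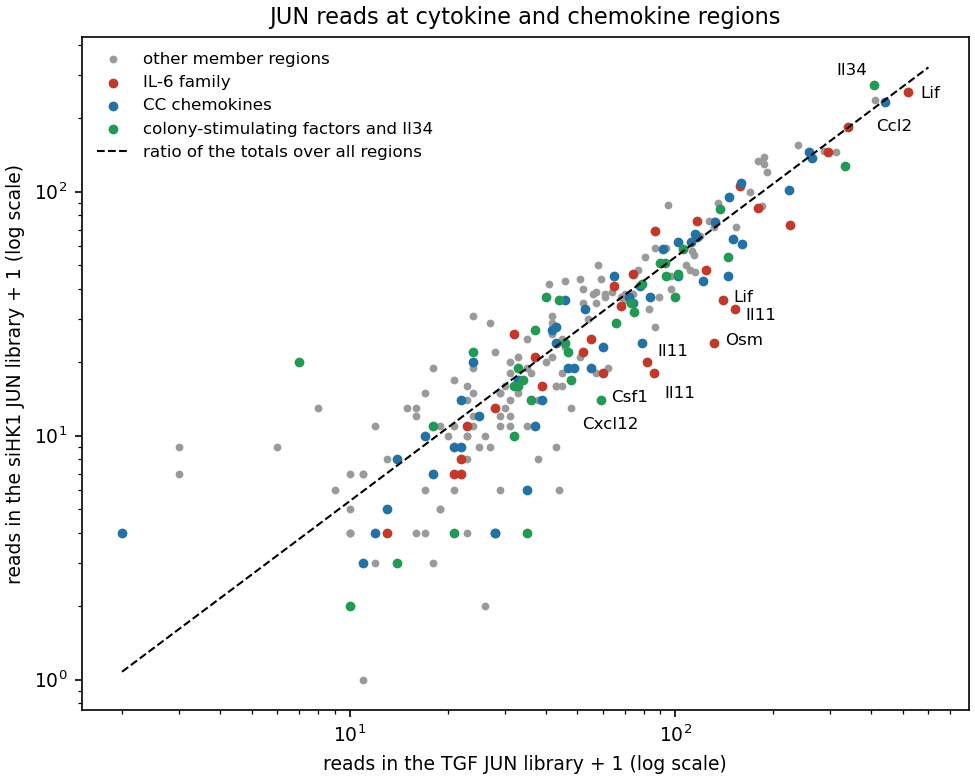
Each point is a JUN region of a cytokine or chemokine gene, with its reads in the TGF library on the x axis and in the siHK1 library on the y axis, both with 1 read added and on log scales. Most points follow the ratio of the library totals, 0.539, and the 3 Il11 regions with those of Osm, Lif and Csf1 fall below it.

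The IL-6 family held 5 of the 7 lower regions. Its 23 JUN regions above the median level had a median of -0.20, and without Il11 the other 20 had a median of -0.16 with 2 lower. Il11 carried 152 JUN reads in TGF and 32 in siHK1 at its promoter region, chr7:4777938-4778527, a log2 difference of -1.37. The raw ratio was 0.211, with a 95% interval of 0.139 to 0.310 that lies wholly below the ratio of the totals, 0.539. The next region upstream, chr7:4779915-4780300, had 85 and 17 reads (log2 difference -1.46). The third, chr7:4781187-4781623, mostly within an intron of the longer transcripts but overlapping 1 annotated exon, had 81 and 19 (log2 difference -1.23). All 3 regions of the gene were lower and none of its intervals reached the totals' ratio.

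Summed over its regions Il11 had 318 JUN reads in TGF and 68 in siHK1, a raw ratio of 0.214 (95% interval 0.162 to 0.279). Taken singly, each of its regions was in the low tail of all JUN regions above the median level, since 0.927%, 0.655% and 1.45% of those differed by as much or more in that direction. Of 4546 genes with at least 3 such JUN regions, Il11 was the 1 gene, or 0.0220%, in which every region was at least 2-fold lower, also with the totals made equal. Of 7115 genes with at least 2 such regions there were 6, or 0.0843%. These counts were made after the Il11 values were seen and describe this pair of libraries.

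Lif, which encodes leukemia inhibitory factor, had the most JUN reads of the 69 genes, 2132 in TGF and 957 in siHK1 over 14 regions. Its raw ratio of 0.449 (95% interval 0.415 to 0.485) lay below that of the totals. Of its 12 regions above the median level 10 had a negative log2 difference, with a median of -0.40, but 1 was at least 2-fold lower. That region, chr11:4263006-4263513, had 139 and 35 reads (log2 difference -1.11). It lies 3.28 kb from the start of a non-coding transcript, inside the longest coding transcript, chr11:4257557-4272514. The region beside it, 3.71 kb from an annotated start, had 224 and 72 reads (log2 difference -0.74). At the start of the longest transcript, 0.179 kb away, a region had 51 and 21 reads (log2 difference -0.46). Its raw ratio of 0.412 had an interval of 0.235 to 0.697, which holds that of the totals. The strongest Lif region, 27.0 kb away, kept its share with 518 and 255 reads (log2 difference -0.09). JUN signal at Lif was thus uneven, with the 2-fold lower region inside the gene and little difference at the far region.

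Osm, the gene of oncostatin M, lies next to Lif on the same chromosome. Its only JUN region, chr11:4229582-4230389, 6.03 kb from the start, had 131 and 23 reads. The log2 difference of -1.63 was the lowest of all member JUN regions above the median level, and the raw ratio was 0.176 (95% interval 0.108 to 0.275). Il6 differed from these: its promoter region had 157 and 105 JUN reads (log2 difference 0.29), and the gene's 9 regions had 458 and 282, a raw ratio of 0.616 (95% interval 0.529 to 0.716) whose interval held the totals' ratio. The 2 regions of Il27 above the median level had a median of 0.18. In the IL-6 family the regions at least 2-fold lower were thus at Il11, Osm and Lif, with none at Il6 or Il27 among their regions above the median level.

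**Figure D2:**
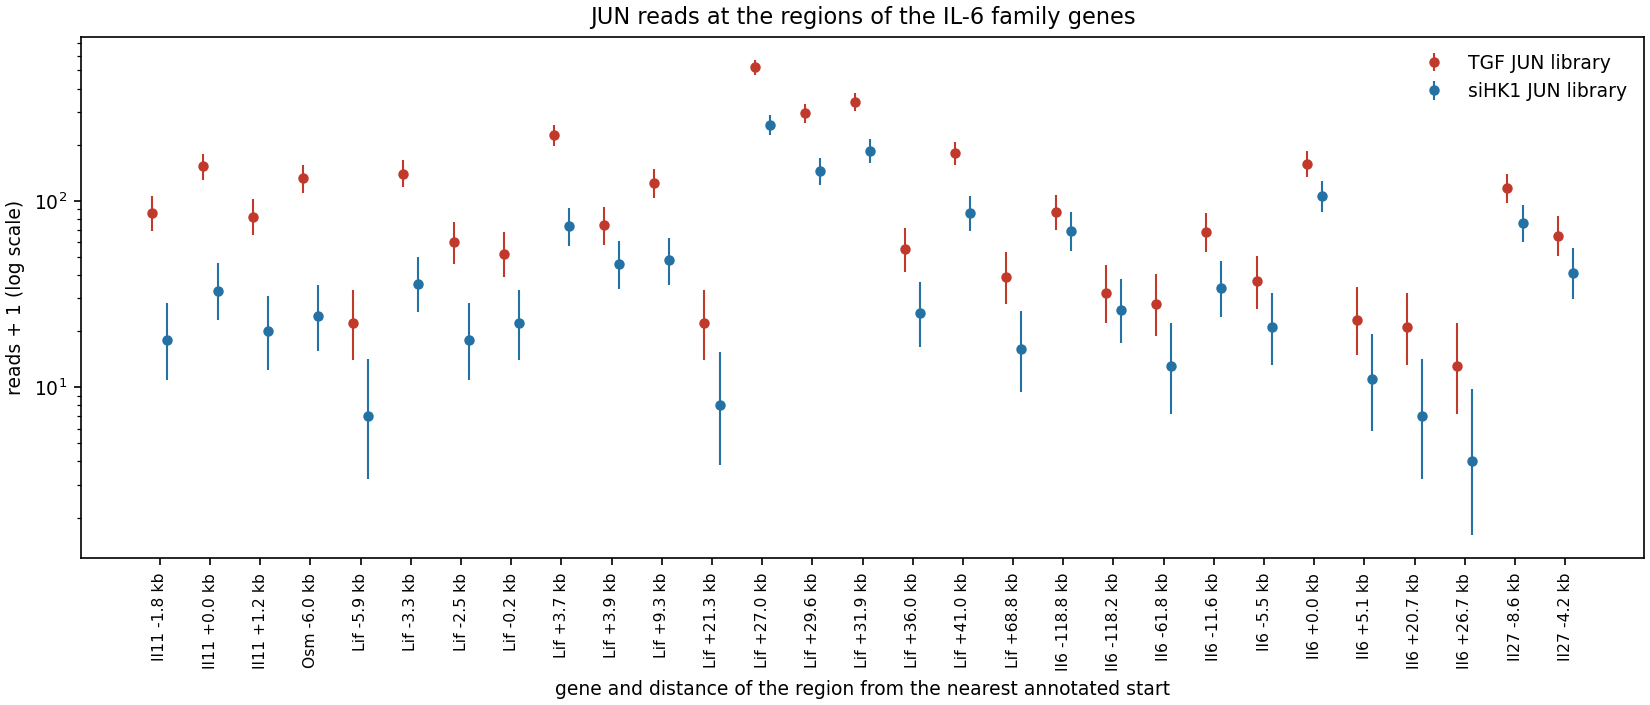
Reads plus 1 (log scale) in the TGF and siHK1 JUN libraries at each region of the IL-6 family genes, named by gene and distance from the nearest annotated start. The 3 regions of Il11 and the region of Osm show the widest gap, while the Il6 promoter had 157 and 105 reads.

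Colony-stimulating factors and Il34 had a median of -0.23 over 23 JUN regions above the median level, with 1 lower region. Csf1, the growth factor of macrophages, had 17 JUN regions with 1093 and 491 reads, a raw ratio of 0.449 (95% interval 0.403 to 0.50). Of the 17 regions 14 had a negative log2 difference. The region at chr3:107739613-107740106 had 58 and 13 reads (log2 difference -1.30, raw ratio 0.224, 95% interval 0.113 to 0.414). A neighbour, 9.88 kb from the start, went from 34 to 3 reads, a log2 difference of -2.52, but lay below the median level. The strongest, 15.4 kb from the start, had 331 and 127 reads (log2 difference -0.47). Il34 encodes the other ligand of the Csf1 receptor. Its 15 JUN regions had 1334 and 720 reads, a ratio of 0.540 that equals that of the totals within its interval of 0.492 to 0.591. Its strongest region, at the start of a non-coding transcript within the gene, had 407 and 272 reads (log2 difference 0.34). Csf2 had 89 and 56 reads over 2 regions.

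CXC chemokines had a median JUN difference of 0.11 over 29 regions, with 1 region lower and 1 higher. Both were assigned to Cxcl12. The lower one, chr6:117103305-117103921, had 47 and 12 reads (log2 difference -1.13). At the higher one, chr6:117199660-117199952, 23 and 30 reads gave a log2 difference of 1.14, and the raw ratio of 1.30 had an interval of 0.733 to 2.35. The strongest Cxcl12 region lies 96.1 kb from the start and had 410 and 236 reads (log2 difference 0.12). Over its 17 regions Cxcl12 had 1524 and 865 reads (raw ratio 0.568, 95% interval 0.522 to 0.617).

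Of the neutrophil chemokines, Cxcl1 had 543 and 333 JUN reads over 4 regions (raw ratio 0.613, 95% interval 0.533 to 0.704), with 73 and 37 at its promoter (log2 difference -0.15). Cxcl5 had 211 and 114 over 5 regions, and Cxcl2 had 117 and 87. Cxcl10, a chemokine induced by interferon, had 31 and 9 reads in its only JUN region, at the promoter (log2 difference -0.95, raw ratio 0.290, 95% interval 0.122 to 0.625), which lay below the median level. The Cxcl1 promoter is shown because its JUN region lacks TGANTCA and holds an NF-kB match, printed in capitals (GRCm38, plus strand).
Cxcl1, chr5:90891125-90891225: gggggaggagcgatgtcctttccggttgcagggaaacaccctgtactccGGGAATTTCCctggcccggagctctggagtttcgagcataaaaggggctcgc

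None of the 32 JUN regions of CC chemokines above the median level was 2-fold lower or higher, and their median was -0.06. The cluster of Ccl2, Ccl7, Ccl11, Ccl12, Ccl8 and Ccl1 on chromosome 11 held 24 JUN regions over 201 kb, with 2818 and 1429 reads. Its raw ratio of 0.507 (95% interval 0.475 to 0.541) held that of the totals, and the median log2 difference over its 20 regions above the median level was -0.00. Ccl2, the main monocyte chemokine, had 1363 and 730 reads over 8 regions, and its strongest region, 2.11 kb from the start, had 439 and 232 (log2 difference 0.01, which becomes -0.03 with equal totals). The promoter of Ccl7 had 64 and 44 reads (log2 difference 0.28). Ccl11, which recruits eosinophils, stood apart within the cluster: 592 and 243 reads over 4 regions gave a ratio of 0.410 (95% interval 0.352 to 0.477). Its region with the most reads, 262 and 136, had a log2 difference of -0.05, and the other 3 had differences of -0.53, -0.84 and -2.21, the last below the median level.

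**Figure D3:**
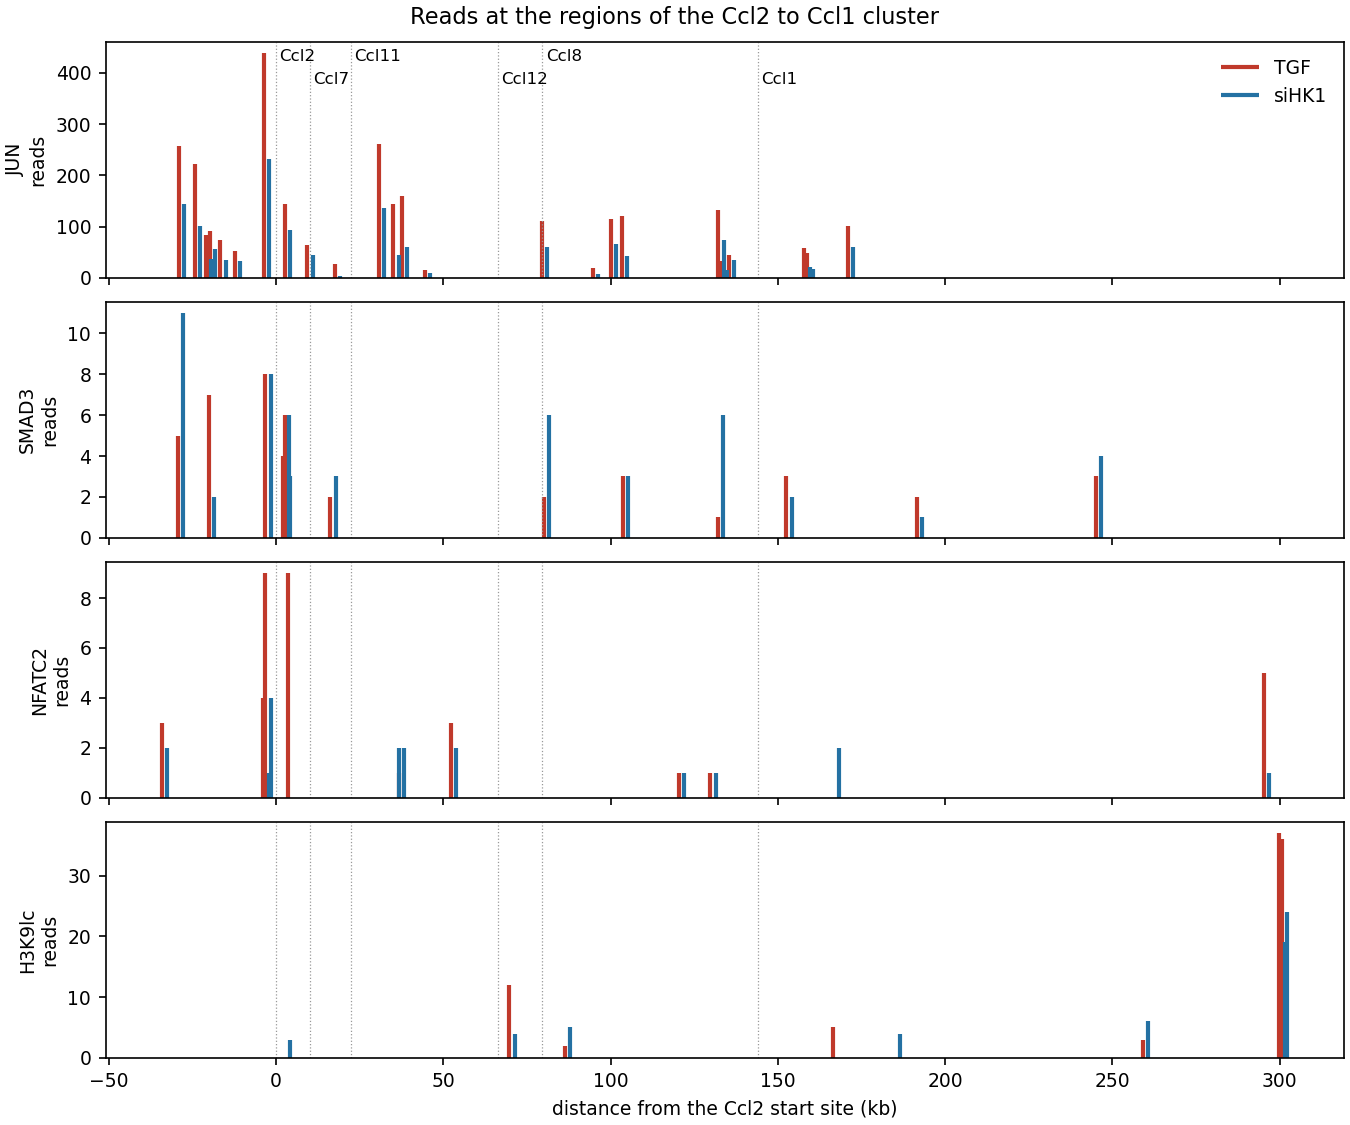
Reads in the TGF and siHK1 libraries of the 4 antibodies at the regions of the chromosome 11 chemokine cluster, by distance from the Ccl2 start in kb, each panel with its own scale of reads. JUN reads reach 439 in the region 2.11 kb from the Ccl2 start, while the SMAD3 and NFATC2 regions of the whole cluster sum to 46 and 36 reads in TGF.

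JUN at the IL-1 family, alarm signals of damaged tissue, had a median of 0.14 over 11 regions with none past 2-fold. Il33 had 741 and 467 reads over 12 regions (raw ratio 0.630, 95% interval 0.560 to 0.709), and its region 36.9 kb from the start had 187 and 138 (log2 difference 0.44). Il1a and Il1b had 134 and 65 and 98 and 48 reads. The Il18 promoter had 28 and 5 reads (log2 difference -1.60) but lay below the median level, and the promoter of Tnf, the gene of tumour necrosis factor, had 20 and 16 (log2 difference 0.44) and lay below that level too. Over the IL-12 family the median was 0.06 with 13 regions, and for the short-chain cytokines, which are mostly lymphocyte products, it was -0.28 with 8 regions. Neither group had a region past 2-fold.

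At promoters, defined as within 3 kb of an annotated start, 3 of 31 JUN regions above the median level were lower (9.68%, against 2.21% of all promoter regions), and all 3 were those of Il11. Away from promoters 4 of 121 were lower (3.31%, against 3.68% of all such regions). The receptors of these ligands were looked at as a fixed list of 34 genes. Of these 28 had JUN regions, 99 of which lay above the median level, with 4 lower and 0 higher. The lower ones were at Cxcr2 with 87 and 19 reads, at Osmr, a receptor of oncostatin M, with 71 and 17, at Cxcr6 with 54 and 12, and at Ccr1 with 49 and 13. Their share of 4.04% was near the 3.29% of all JUN regions. In a list of 15 genes of NF-kB and AP-1 regulation, 54 regions above the median level included 2 lower, at Dusp1 (48 and 11 reads) and Nfkb1 (97 and 26), and 2 higher, at Nfkbia (24 and 31) and Nfkb1 (32 and 41). Each direction made up 3.70% of the list's regions, against 3.29% lower and 0.888% higher among all JUN regions. None of 37 JUN regions of 11 JAK-STAT genes passed 2-fold either way. For SMAD3 the receptors had 7 lower and 16 higher of 59 regions above the median level. The NF-kB and AP-1 list had 3 and 10 of 29, and the JAK-STAT genes 1 and 9 of 22. Of all SMAD3 regions 20.6% were lower and 26.0% higher. For NFATC2 the lists in that order had 6 and 23 of 68, 6 and 9 of 36, and 2 and 6 of 24. Of all NFATC2 regions 24.6% were lower and 27.0% higher.

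**Figure D4:**
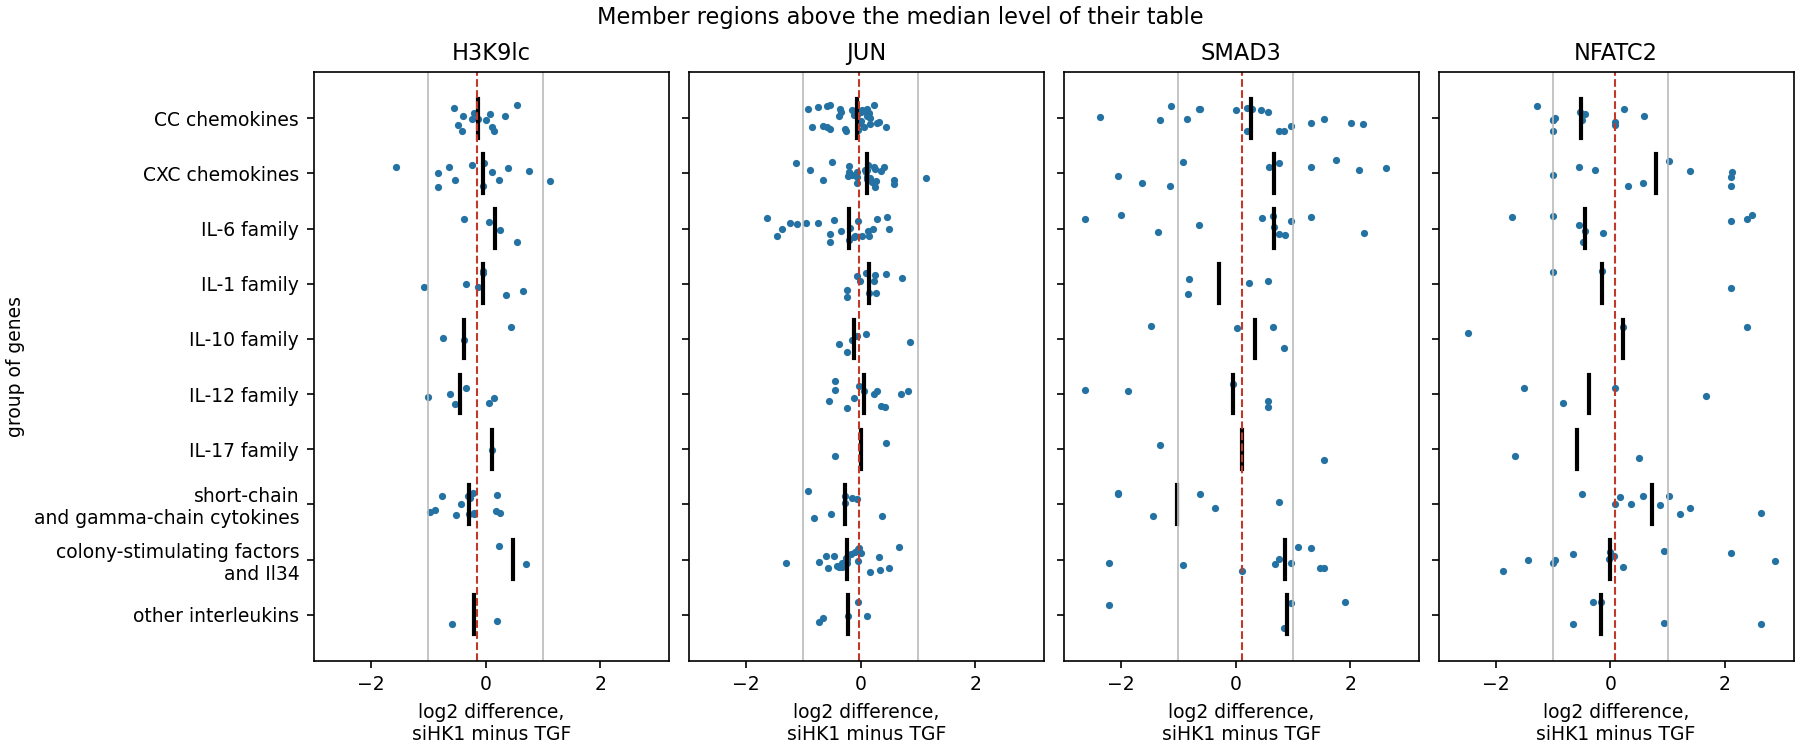
Log2 difference, siHK1 minus TGF, of each member region above the median level of its table, by group of genes, with 1 panel per antibody; black bars are group medians, the dashed line is the median of all regions of the table and grey lines mark 2-fold. Most JUN and H3K9lc points lie between the 2-fold lines, with 5 IL-6 family regions below them in JUN, and the SMAD3 and NFATC2 points spread from about -2.62 to 2.87.

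SMAD3 and NFATC2 differed more between libraries, with far fewer reads. Of 77 SMAD3 member regions above the median level 18 were at least 2-fold lower and 16 higher, where 20.6% and 26.0% of all SMAD3 regions were. The median was 0.46 against 0.11. With the totals made equal 17 members were lower and 24 higher, so which direction held more regions depended on the scaling. Peaks called in both libraries were few: 10 of 137 member SMAD3 regions and 5 of 144 NFATC2 regions, or 7.30% and 3.47%, compared with 132 of 257 JUN regions, or 51.4%. These shares were near those of all regions, 4.98%, 3.61% and 49.7%. Member peaks called in TGF only and in siHK1 only numbered 51 and 76 for SMAD3 and 53 and 86 for NFATC2. They numbered 107 and 18 for JUN and 57 and 29 for H3K9lc. Listing through a single library favours a higher value in that library, so differences at such regions carry this limit.

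Il11 had more SMAD3 and NFATC2 reads in siHK1, in regions called as peaks in that library only. Listing through that library favours a higher value there, so the direction is no result about Il11. Its SMAD3 region, chr7:4776564-4777221, had 5 reads in TGF and 11 in siHK1, a log2 difference of 1.31 with a raw ratio of 2.20 (95% interval 0.705 to 8.08). Its NFATC2 region, chr7:4779747-4780167, which overlaps the second JUN region, had 2 and 9 reads, a log2 difference of 2.47 with a raw ratio of 4.50 (95% interval 0.931 to 42.8). The SMAD3 interval holds the totals' ratio of 0.710, and the NFATC2 interval lies above that of 0.616 and is wide because the reads are few. H3K9lc had no Il11 region.

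Other SMAD3 regions with higher values in siHK1 were the promoter of Ccl17, a T cell chemokine, with 4 and 15 reads (log2 difference 2.01, raw ratio 3.75, 95% interval 1.19 to 15.5), and that of Cxcl12 with 1 and 8 (log2 difference 2.62). A Lif region annotated as 3' UTR had 3 and 14 reads (log2 difference 2.25), and a Cxcl11 region had 3 and 13 (log2 difference 2.15). Il16, a chemoattractant of CD4+ cells, had 7 and 23 reads in an intron 14.5 kb from the start (log2 difference 1.92, raw ratio 3.29, 95% interval 1.36 to 9.07). On the lower side, regions of Il12a and Il6 each had 11 and 1 reads (log2 difference -2.62, raw ratio 0.0909, 95% interval 0.00211 to 0.625), and the promoter of Ccl28 had 9 and 1 (log2 difference -2.36). The direction of SMAD3 went with the presence of JUN. Member SMAD3 regions that overlap a JUN region had a median of 0.69, with 4 lower and 12 higher among 46 above the median level, and those without had -0.82, with 14 lower and 4 higher among 31. The same split held over all SMAD3 regions, with medians of 0.67 and -0.41, so it is not particular to these genes. Median reads were 6 and 8 in the members with JUN and 3 and 2 in those without, and the part of depth in this split was not tested.

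For NFATC2, 14 of 70 member regions above the median level were lower and 18 higher, where 24.6% and 27.0% of all NFATC2 regions were, and the median of 0.07 was near the 0.08 of all. CC chemokines had 4 lower and 0 higher of 12, with a median of -0.51, and CXC chemokines 1 lower and 5 higher of 10, with a median of 0.80. Ccl2 had 25 and 7 NFATC2 reads over 4 regions (raw ratio 0.280, 95% interval 0.102 to 0.666), which holds the totals' ratio of 0.616. Cxcl12 had 19 and 36 over 12 regions (raw ratio 1.89, 95% interval 1.06 to 3.50), above that ratio, and Lif had 47 and 22 (raw ratio 0.468, 95% interval 0.269 to 0.792), which holds it.

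Single NFATC2 regions differed in both directions. Near Csf1, chr3:107739478-107739881 had 2 and 12 reads (log2 difference 2.87, raw ratio 6, 95% interval 1.34 to 55.2). It overlaps the Csf1 region with less JUN signal in siHK1. The NFATC2 region was called as a peak in siHK1 only and the JUN region in TGF only. Each was thus listed through the library where it is higher, so their opposite directions are no result about the factors. The region 4.57 kb from Il22 had 31 and 3 reads (log2 difference -2.48, raw ratio 0.0968, 95% interval 0.0189 to 0.310), and it consists wholly of annotated repeat sequence. Il22 has a near-identical copy, Il22b, so its reads are uncertain. A region of Il25 had 17 and 3 reads (log2 difference -1.66).

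H3K9lc was sparse at these genes, and in the comparison of siHK1 with TGF only Ccl17, Cxcl14, Il16 and Osm had a region at a promoter. Of 65 member regions above the median level 3 were lower and 1 higher, where 5.02% and 1.64% of all H3K9lc regions were, and the median was -0.20 against -0.14. The lower regions lie 39.4 kb from Cxcl1 (26 and 5 reads, log2 difference -1.57, raw ratio 0.192, 95% interval 0.0577 to 0.509), 13.5 kb from Il36b (43 and 12 reads, log2 difference -1.08) and 9.09 kb from Il12a (48 and 14 reads, log2 difference -1.01). With equal totals the Il12a difference was -0.95 and 2 regions were lower. The Cxcl1 region lies wholly in repeat sequence, and 53.8% of member H3K9lc regions and 55.8% of all were mostly repeat. The higher one, 21.6 kb from Cxcl14, had 10 and 14 reads (log2 difference 1.12, raw ratio 1.40, 95% interval 0.578 to 3.52). At the promoters, Osm had 19 and 14 reads and Ccl17 2 and 4. Il6 had 96 and 54 reads over 4 regions and Cxcl14 209 and 130 over 8, close to the totals' ratio of 0.570 with intervals of 0.395 to 0.793 and 0.496 to 0.778. Of all 37341 H3K9lc regions above the median level 23341 had a negative difference. Among the lists, the receptors had 24 of 45 negative with a median of -0.03 and 2 lower, and the JAK-STAT genes had 1 lower and 1 higher of 3. The NF-kB and AP-1 regulators had 9 of 9 negative with a median of -0.62, and 2 were lower, both at Nfkbiz, with 61 and 17 and 22 and 6 reads.

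The H3K9lc region with the most reads lies 6.29 kb from Ccl28, a chemokine of mucosal epithelia, and it was also found with the other 3 antibodies. It had 166 and 72 H3K9lc reads (log2 difference -0.41), 17 and 6 JUN reads, 105 and 40 SMAD3 reads and 94 and 38 NFATC2 reads. For SMAD3 and NFATC2 these were the highest reads of any member region, at a gene whose JUN regions had only 49 and 22 reads in all. Its sequence is shown because it ends in a CT repeat and holds no TGANTCA (GRCm38, plus strand).
Ccl28, chr13:119616864-119616964: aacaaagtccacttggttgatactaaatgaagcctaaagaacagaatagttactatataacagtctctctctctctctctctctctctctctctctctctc
Of 117 member H3K9lc regions 4 overlapped regions of all 3 factors (3.42%, against 2.18% of all H3K9lc regions). The others lie near Il1b, with 19 and 9 JUN reads, 19 and 8 SMAD3 reads and 18 and 10 NFATC2 reads, near Il15, and in an intron of Il34. The Il34 region had 25 and 25 H3K9lc reads, 32 and 15 JUN reads, 39 and 15 SMAD3 reads and 28 and 18 NFATC2 reads, and consists wholly of repeat sequence. At these loci each antibody gave reads at the same place, and whether the antibodies bound there was not tested.

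Untreated and TGF-β-treated cells could be compared for H3K9lc alone, and with very unequal depth. The NC library had 115572 reads in the listed regions and the TGF library 2313288, a ratio of 20, and 42 of the 105 member regions had no NC read. Of 52 members above the median level 20 were at least 2-fold higher in TGF and 1 lower, where 34.0% and 4.28% of all regions were. The median was 0.69 against 0.62. With the totals made equal the median was 0.09 and the higher and lower counts 10 and 6, so the size of the difference depended on the scaling.

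Among single regions, that near Il21, a cytokine of T cells, went from 0 to 115 reads, at least 38.3-fold more over the floor of 3 reads per library; the exact 95% lower limit of the ratio was 30.7. In the same way the region 24.6 kb from Il33 went from 0 to 57 reads, at least 19.0-fold (lower limit 15), and that near Cxcl14 from 0 to 53, at least 17.7-fold (lower limit 13.9). Neither of these bounds reaches the ratio of the totals, 20. Ccl28 had 4 and 166 reads (raw ratio 41.5, 95% interval 15.9 to 154). The regions near Il21, Il33, Cxcl14 and Ccl28 were called as peaks in TGF only. So were 87 of the 105 member regions, with 16 called in NC only and 1 in both. These regions were thus listed through the library where they are high, which favours large ratios. The only member at least 2-fold lower was near Ccl3, a macrophage chemokine, with 5 and 23 reads, a raw ratio of 4.60 (95% interval 1.71 to 15.5) that lies under that of the totals (log2 difference -1.17). The TGF library of this comparison is the one used against siHK1, so the comparisons share it. The Il21 region had 34 reads in siHK1 (log2 difference -0.97 against TGF) and lies wholly in repeat sequence.

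Member regions lay mostly outside genes. Distal intergenic regions made up 60.3% of the member JUN regions (95% interval 54.0 to 66.3) against 32.9% of all JUN regions. The shares were 77.8% against 65.3% for H3K9lc, 56.9% against 39.7% for SMAD3, and 71.5% against 41.2% for NFATC2. Introns held 16.0% of member JUN regions against 35.6% of all. These genes are short and often lie in clusters, and the part of gene length in these shares was not tested. Regions were assigned to the nearest gene, which need not be the gene they act on.

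**Figure D5:**
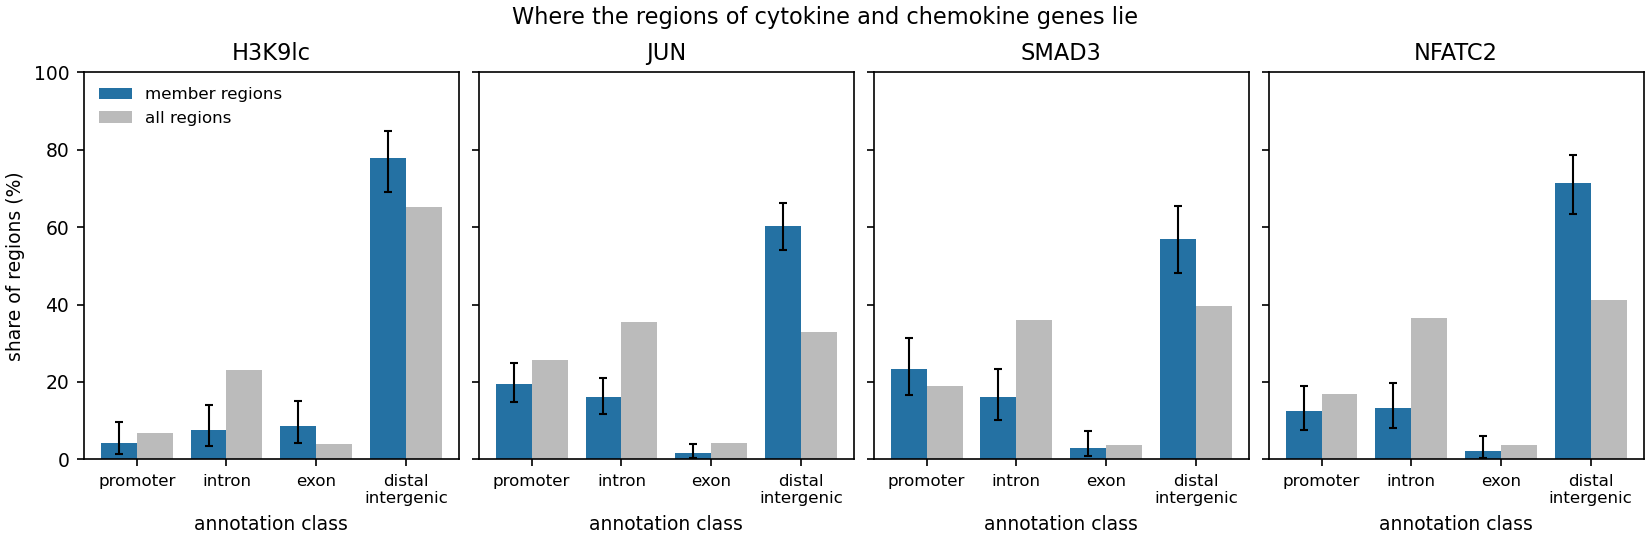
Share of regions (%) in each annotation class (x axis), for member regions and for all regions (grey bars) of each antibody's table. Distal intergenic regions make up more of the members than of all regions with every antibody, by 60.3% to 32.9% for JUN.

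Overlap with JUN was more frequent among members than among all regions for SMAD3, with 55 of 137 (40.1%, 95% interval 31.9 to 48.9) against 23.0%. It was 33 of 144 (22.9%, 16.3 to 30.7) against 16.7% for NFATC2 and 13 of 117 (11.1%) against 5.92% for H3K9lc. Seen from the 257 JUN regions, 21.4% overlapped SMAD3, 12.1% NFATC2 and 5.06% H3K9lc, against 18.1%, 15.4% and 6.07% of all JUN regions. Overlap with any other antibody was 28.4% for both.

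The AP-1 element TGANTCA, read on both strands in the central 200 bases, was in 92 of 257 member JUN regions (35.8%, 95% interval 29.9 to 42.0) and in 29.3% of all JUN regions. The NFAT core GGAAA was in 57.2% against 47.6%, the SMAD element CAGAC in 44.0% against 44.5%, and an NF-kB match in 14 regions (5.45%, 95% interval 3.01 to 8.97) against 3.06%. An NF-kB match may contain GGAAA. In this window 3 of the 7 lower JUN regions held AP-1, 3 NF-kB, 6 NFAT and 6 SMAD matches. In RefSeq promoters of GRCm38.p6, from 250 bases before to 50 after the start, 47 of the 69 genes were found with 54 promoters. TGANTCA was in 11 of these (20.4%, against 7.81% of all promoters) and an NF-kB match in 9 (16.7% against 5.89%). GGAAA was in 79.6% against 61.3% and CAGAC in 61.1% against 49.6%, so each of these 4 motifs was more frequent in the member promoters. A match is a description of the letters and not of binding.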

How the data were processed

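Mouse heart fibroblasts were measured by CUT&Tag, and 9 of 10 libraries were compared in pairs; the 1 library without an antibody in its labels was not used, nor were 6 per-sample columns. Per the study's methods the authors aligned reads with Bowtie2 to a newer mouse genome build than mm10 and called peaks with MACS2. The submitters' processing notes name BWA 0.7.12 and mm10. The deposited read counts per region are raw, and the deposited 0 or 1 peak mark is used as a score. The log2 values deposited by the authors are scaled per library and follow log2(count + 0.5) linearly in each library. The tables also hold the authors' own comparisons (ratios, p-values and calls), which were not used. All 30096 JUN-table transcripts found in GENCODE vM21 had the same coordinates, so GRCm38 was used for sequence.

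Differences were of the deposited log2 values, second library minus first. A region was called at 2-fold where its mean level was above the table's median. Intervals are exact 95% Poisson or binomial and cover counting error only. Named regions were the 4 largest differences each way and the 3 highest levels per table, plus the strongest and promoter regions of 20 genes; others were named after their values were seen. The members and lists were chosen with earlier results of these data known. Alternatives were equal totals with pseudocounts of 0.5 and 2, no level filter, a 50 kb limit, a wider name rule, 3-fold and 50% overlap. Python 3.11.15, pandas 2.3.3, SciPy 1.17.1, NumPy 2.4.6, matplotlib 3.10.9 and samtools 1.23.1 were used, and scripts were tested on simulated data. Of the leukocyte markers 1 gene is not reported here.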

Additional observations from a re-analysis of the deposited data

How the results depend on the processing

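No paired analysis was possible because every group held 1 library. Of 75 summary values recomputed under an alternative 46 stayed within 1.5 times for counts or within the interval of the median over regions, 28 moved and 1 reversed. All 268 recomputed values of the 134 named regions stayed within their counting intervals; with equal totals the sign changed at 1 JUN region (Ccl2), 1 NFATC2 region (Csf1) and 2 regions of TGF over NC (Il6 and Cxcl1), none of them past 2-fold. Without Il11, a setting added after seeing the data, JUN had 4 lower. Without the level filter, H3K9lc had 18 member regions lower and 18 higher. In the same way JUN had 32 and 7 with a median of -0.20, SMAD3 had 40 and 37, NFATC2 had 30 and 62 with a median of 0.53, and TGF over NC had 18 and 50. At 3-fold H3K9lc had 0 lower and 0 higher, JUN 1 and 0, SMAD3 11 and 7, TGF over NC 0 and 9, and NFATC2 4 and 13. With equal totals TGF over NC had a median of 0.094, 6 lower and 10 higher. Within 50 kb the NFATC2 median reversed to -0.017 and TGF over NC had 13 higher. The wider name rule gave 2 higher for JUN and 2 lower for TGF over NC. The 3-fold threshold and the 50 kb limit can only lower a count by construction; for the other values the cause was not tested. The median member region had 4 and 3 SMAD3 reads, 2 and 2 NFATC2 reads and 1 NC read, and their intervals are wide.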
